A study of Mus musculus with 3 samples.

Results

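The Rab genes encode small GTPases that direct vesicle traffic, and they were described here in single cells of mouse tumors. Members were the rows of the deposited matrices whose symbol is Rab followed by a number and at most 1 letter, with at least 20 unique molecular identifiers (UMIs, each standing for 1 captured transcript) over the 3 libraries. Of 32285 genes in the matrices, 59 had such a symbol and 57 were members. Rab39, with 10 UMIs, and Rab3c, with 5 UMIs, were left out. The tumors grew from B16-F10, a mouse melanoma cell line, in skin of C57BL/6J mice aged 6–8 weeks. The libraries were 1 labelled shCtrl, from tumors with a control short hairpin RNA (shRNA), and 2 labelled shMib2, replicates 1 and 2, from tumors with different shRNAs against Mib2. Each library pooled the tumors of 3 mice, so that it is 1 sample, and every tumor carried an shRNA construct. The study followed how the ubiquitin ligase MIB2 and the GTPase RAB8 move the checkpoint ligand PD-L1 to the cell surface, and the comparisons below ask how RNA of the Rab family differs between the cell classes of these tumors and between the labels.

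A Rab protein switches between a GTP-bound form, which binds effectors such as motors and tethers on a membrane, and a GDP-bound form, which is drawn off the membrane. Exchange factors load GTP, GTPase-activating proteins speed its hydrolysis, and a lipid tail added after synthesis lets the protein sit in membranes. Different Rabs mark different organelles. In melanocytes, Rab38 and Rab32 bring pigment enzymes to the melanosome, and Rab27a ties the mature melanosome through melanophilin (Mlph) to the motor myosin Va (Myo5a). In killer lymphocytes, Rab27a prepares lytic granules for release.

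Mib2, the target of the shRNAs, lies on chromosome 4 from 155654677 to 155669198 of mm10. In melanoma cells its RNA was at 2.47, 3.11 and 2.64 CPM in the library labelled shCtrl and the libraries labelled shMib2, replicates 1 and 2, in that order, which is kept for every triple of values below. Its log2 fold change between labels was 0.17 ± 0.12 (SE, adjusted p = 0.53, edgeR), with shCtrl the lowest of the 3, and directions between labels are given only as directions between labelled libraries. The matrices held 9558, 9428 and 8388 barcodes with 243926188, 190904274 and 203298455 UMIs. After filters, 7463, 5979 and 3530 barcodes were melanoma cells, with at least 5000 UMIs and at least 0.5% of them from the pigment genes Dct and Pmel. The other classes were clusters, built without the Rab genes and their listed regulators and named from marker genes. They were T cells (81, 562 and 837), NK cells (46, 329 and 501), myeloid cells (12, 169 and 307, mononuclear phagocytes and conventional dendritic cells) and stromal cells (24, 313 and 303, fibroblasts and mural cells). UMIs were summed per class and library, and levels are given as CPM, the counts per 1000000 UMIs of that sum. The melanoma sums held 159085028 to 210722764 UMIs and the others 27461 to 3826781, and 1 UMI in the 12 myeloid cells of the library labelled shCtrl equals 36.4 CPM. Markers of T cells summed to 5460 to 6067 CPM in T cells and to at most 853 CPM elsewhere, and those of NK cells to 10323 to 13762 CPM in NK cells and to at most 2349 CPM elsewhere. Summed levels of the 8 melanoma markers were 20274, 19945 and 20945 CPM in melanoma cells and 466 to 1234 CPM in the other classes. From 4 of these markers, RNA from melanoma cells was estimated at 2.00% to 6.11% of the UMIs of the other classes. Hemoglobin and other erythroid markers summed to 14662, 8087 and 3657 CPM in NK cells and to at most 1937 CPM in the other classes. A low-RNA cluster of 1660 barcodes, 1075 of them from the library labelled shMib2 replicate 2, stayed unnamed. Any pair of libraries shared 20 to 30 barcodes.

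The 57 Rab genes together made up 2659, 2732 and 2633 CPM of melanoma RNA, 1873, 1985 and 1939 CPM of T cell RNA, 1891, 2162 and 2129 CPM of NK cell RNA, 2148, 2749 and 2730.3 CPM of myeloid RNA and 2574, 2609 and 2657 CPM of stromal RNA. The family total was lower in every T and NK sum than in every melanoma sum, while the stromal and myeloid totals overlapped those of melanoma cells. The members that made up the total differed between classes. By mean CPM over the 3 libraries, 19 members were highest in stromal cells, 16 in melanoma cells, 10 in myeloid cells, 8 in NK cells and 4 in T cells. For 23 of the 57 members, or 40.4%, every library of 1 class lay above every library of all other classes. The same held for 37.6% of all 17006 genes with at least 20 UMIs in these sums, so such separation was about as frequent among Rab genes as among other genes. Many of these separations rest on 0 UMIs in a shallow sum, since 0 UMIs allow up to 109.2 CPM in myeloid and 37.1 CPM in NK cells of the library labelled shCtrl (3 counts of the total). With every sum at 0 set to its limit, a choice made after seeing the data, 10 members or 17.5% were still separated by counted level, against 12% of all genes. They were Rab14 and Rab38 in melanoma cells, Rab1a, Rab2a, Rab6a and Rab18 in stromal cells and Rab7b, Rab20, Rab32 and Rab43 in myeloid cells. For the other 13, among them Rab17, Rab27a, Rab34, Rab3a and Rab4a in melanoma cells and Rab27b and Rab37 in NK cells, a sum at 0 was too shallow to show the order. Sums above 0 were left as counted, so shallow depth also limits some of the 10. Rab1a, Rab6a and Rab18 had 1 UMI in myeloid cells of the library labelled shCtrl, as did Rab20. The exact Poisson interval, 0.922 to 203 CPM, covers the stromal levels of the first 3 and the melanoma level of Rab20. Rab7b and Rab32 had 3 UMIs there (22.5 to 319 CPM), and Rab32 at its lowest had 62.5 against 60.9 CPM in stromal cells. For Rab14 and Rab38, also at 1 UMI there, the melanoma levels lay above 203 CPM.

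**Figure D1:**
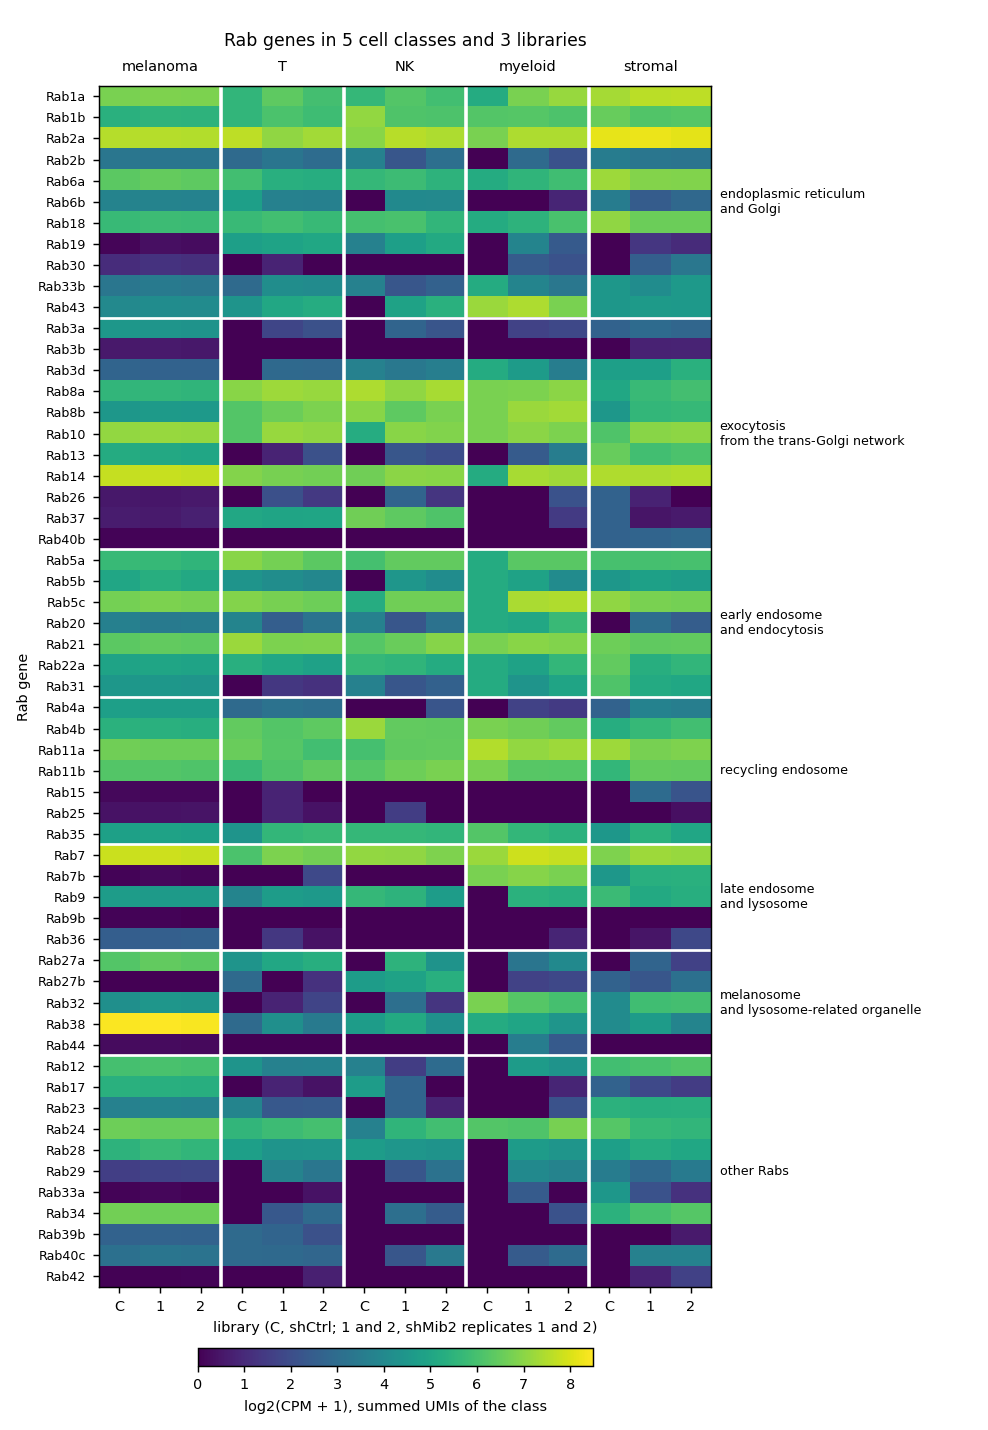
Levels of the 57 Rab genes as log2(CPM + 1) in summed UMIs of 5 cell classes (blocks of columns) and 3 libraries (columns within a block), with rows ordered by role. The 3 melanoma columns look alike throughout, Rab38 stands out in them at 338 to 358 CPM, and the shCtrl column of myeloid cells, a sum of 27461 UMIs, holds many dark cells.

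Among the Rabs of melanosomes and related organelles, Rab38 stood far higher in melanoma cells than in every other class, and it made up most of the group's level there. The summed level was 435, 465 and 438 CPM in melanoma cells, 33.2, 51.8 and 52.5 CPM in T cells, 49.4, 114 and 78.7 CPM in NK cells, 146, 128 and 105 CPM in myeloid cells and 37.6, 91.6 and 84.1 CPM in stromal cells. The group has 5 members, Rab38, Rab27a, Rab27b, Rab32 and Rab44, and they differed in the class where they stood highest. Without Rab38 the other 4 summed to 91.4, 107 and 101 CPM in melanoma cells and 109, 97.1 and 84.8 CPM in myeloid cells, which overlapped, and to 26.6, 34.0 and 42.2 CPM in T, 24.7, 80.1 and 60.7 CPM in NK and 21.5, 67.3 and 70.8 CPM in stromal cells.

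Rab38, on chromosome 7 from 88430273 to 88491572, had 344, 358 and 338 CPM in melanoma cells. It had 6.64, 17.8 and 10.3 CPM in T cells, 24.7, 34.3 and 18.0 CPM in NK cells, 36.4, 30.9 and 20.5 CPM in myeloid cells and 16.1, 24.3 and 13.3 CPM in stromal cells. By counted level no library of another class came within 9-fold of the melanoma level. The log2 fold change against melanoma cells was -4.53 ± 0.23 in T cells (adjusted p = 2.9e-18, edgeR quasi-likelihood test, 3 libraries per class) and -4.06 ± 0.21 in stromal cells (adjusted p = 1.8e-18, edgeR). The melanoma RNA estimated in T cells would by itself give 17.8, 16.6 and 9.61 CPM of Rab38, more than was counted in the first library and close to the count in the other 2. In myeloid cells the same estimate was 12.6, 14.75 and 10.7 CPM, below the 36.4, 30.9 and 20.5 CPM counted.

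Rab27a, on chromosome 9 from 73044854 to 73097629, had 73.6, 86.0 and 80.7 CPM in melanoma cells and 19.9, 33.2 and 38.5 CPM in T cells. The T cell levels lay above the 3.82, 3.98 and 2.30 CPM that melanoma RNA would give in T cells. NK cells had 0, 43.9 and 19.5 CPM, where 0 of 80891 UMIs in the first library allows up to 37.1 CPM. Myeloid cells had 0, 8.83 and 15.4 CPM and stromal cells 0, 5.70 and 2.09 CPM. Every melanoma library was thus above every T, NK and stromal library. The 0 of 27461 UMIs in myeloid cells of the library labelled shCtrl allows up to 109.2 CPM, so the order against that sum was not shown. Against melanoma cells the log2 fold change was -0.95 ± 0.17 in T cells (adjusted p = 9.0e-06, edgeR), -1.46 ± 0.24 in NK cells (adjusted p = 4.0e-06, edgeR) and -4.35 ± 0.25 in stromal cells (adjusted p = 7.2e-17, edgeR).

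Rab27b, the paralog of Rab27a that also acts in granule release, was nearly absent from melanoma cells, with 2, 3 and 3 UMIs in all. NK cells had 24.7, 28.6 and 39.7 CPM, T cells 6.64, 0 and 1.33 CPM and stromal cells 5.37, 3.80 and 7.84 CPM. Pooled over the libraries, the ratio of NK to melanoma level was 2395 (95% exact interval 1151 to 5764), where the interval covers counting error only. Every NK sum was counted above every other sum, but the myeloid sum of the library labelled shCtrl, at 0 UMIs, is too shallow to be placed below them, whereas Rab27a was highest in melanoma cells.

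Rab32, the close relative of Rab38, had 17.5, 21.0 and 19.9 CPM in melanoma cells and was higher in myeloid cells, at 109, 75.0 and 62.5 CPM. Stromal cells had 16.1, 57.8 and 60.9 CPM, while T cells had 0, 0.809 and 2.32 CPM and NK cells 0, 7.63 and 1.499 CPM. Rab32 was thus expressed outside the pigment cells, where Rab38 was low. The log2 fold change against melanoma cells was 2.09 ± 0.21 in myeloid cells (adjusted p = 2.5e-10, edgeR), 1.72 ± 0.14 in stromal cells (adjusted p = 3.5e-13, edgeR) and -3.25 ± 0.40 in T cells (adjusted p = 8.3e-09, edgeR). Rab44, known from granules of mast cells, had no UMI in T, NK or stromal cells and 0, 11.03 and 4.28 CPM in myeloid cells.

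**Figure D2:**
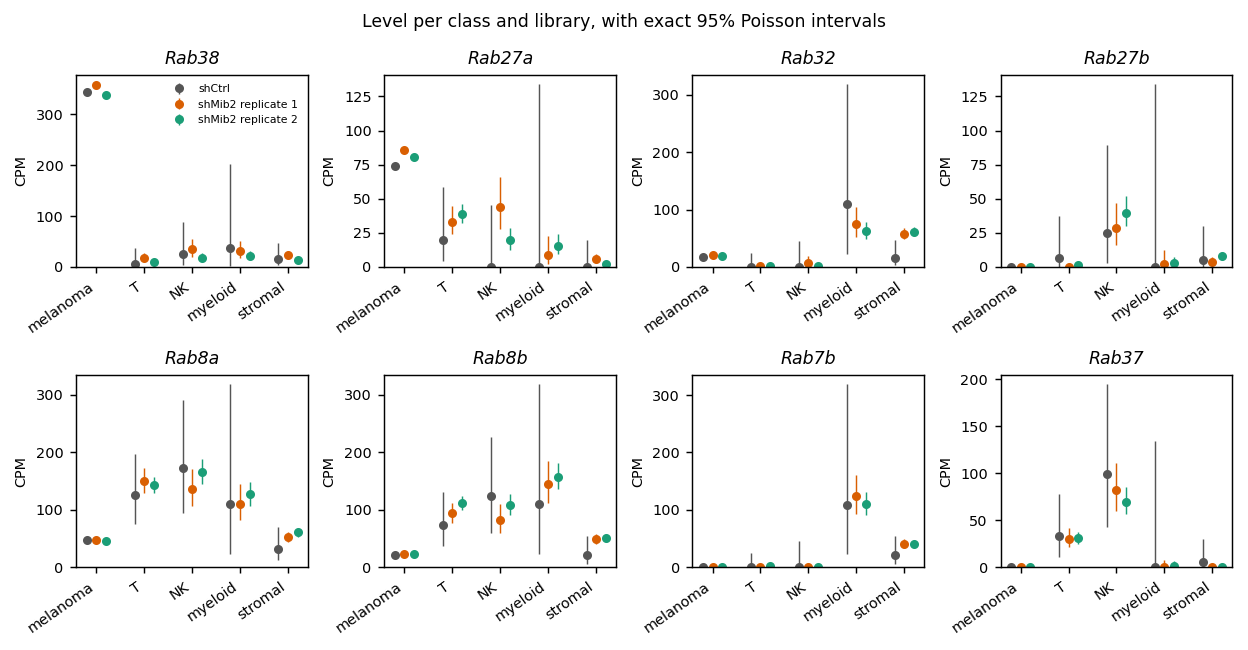
Level in CPM of 8 Rab genes in each cell class (x axis) and library (color), with exact 95% Poisson intervals that cover counting error only. Rab38 and Rab27a have their highest mean in melanoma cells, and Rab27b and Rab37 have theirs in NK cells. Rab8a is at 46.4 to 48.0 CPM in melanoma cells and was counted above 100 CPM in every T, NK and myeloid sum. Its myeloid value in the library labelled shCtrl rests on 3 UMIs, with an interval of 22.5 to 319 CPM.

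The Rabs of exocytosis include those the study examined. Rab8a, which carries cargo from the trans-Golgi network to the plasma membrane, lies on chromosome 8 from 72161200 to 72183904. It had 47.5, 48.0 and 46.4 CPM in melanoma cells, 126, 149.7 and 142 CPM in T cells, 173, 135 and 166 CPM in NK cells, 109, 110.3 and 127 CPM in myeloid cells and 32.2, 52.4 and 60.6 CPM in stromal cells. Every immune sum exceeded every melanoma sum by at least 2-fold, and the stromal sums overlapped the melanoma sums. The log2 fold change against melanoma cells was 1.82 ± 0.12 in T cells (adjusted p = 1.0e-15, edgeR), 1.92 ± 0.14 in NK cells (adjusted p = 3.4e-14, edgeR) and 1.69 ± 0.15 in myeloid cells (adjusted p = 2.0e-11, edgeR). The stromal difference of 0.45 ± 0.12 (adjusted p = 0.0017, edgeR) was lost when either library labelled shMib2 was left out, with adjusted p = 0.51 and 0.52. Myeloid and T cells were not shown to differ (log2 fold change -0.13 ± 0.16, adjusted p = 0.57, edgeR).

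Rab8b, the paralog of Rab8a, had the same order of melanoma and immune cells. It had 21.6, 23.4 and 23.2 CPM in melanoma cells, 73.1, 93.8 and 111 CPM in T cells, 124, 82.0 and 109 CPM in NK cells and 109, 146 and 158 CPM in myeloid cells, with no overlap between melanoma and immune sums by counted level. Rab8b also had only 3 UMIs in the myeloid sum of the library labelled shCtrl, with an interval of 22.5 to 319 CPM that reaches the melanoma level. Its log2 fold change against melanoma cells was 2.35 ± 0.13 in T cells (adjusted p = 2.1e-17, edgeR) and 3.04 ± 0.16 in myeloid cells (adjusted p = 4.2e-18, edgeR). Unlike Rab8a, it was also higher in myeloid than in T cells, by 0.69 ± 0.16 on the log2 scale (adjusted p = 7.1e-04, edgeR), although whether the 2 paralogs differ in this was not tested.

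Other exocytic Rabs did not follow Rab8a. Rab10, which moves vesicles to the surface of many cells, had 136, 143 and 142 CPM in melanoma cells and 73.1, 145 and 135 CPM in T cells, and it passed no comparison between classes. Its log2 fold changes against melanoma cells lay between -0.23 and 0.03. Rab14, which acts between the Golgi and endosomes, had 213, 216 and 210.1 CPM in melanoma cells against 119.6, 106 and 102 CPM in T cells, a log2 fold change of -0.80 ± 0.18 (adjusted p = 2.6e-04, edgeR). Rab13, which serves traffic to cell junctions, had 36.6, 33.5 and 31.5 CPM in melanoma cells and 91.3, 59.3 and 66.4 CPM in stromal cells but only 0, 0.809 and 3.32 CPM in T cells. Its level thus ran in the order stromal, melanoma, then immune cells, with log2 fold changes against melanoma cells of 1.21 ± 0.12 (adjusted p = 1.0e-10, edgeR) and -3.47 ± 0.31 (adjusted p = 1.0e-11, edgeR).

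The Rabs of regulated secretion were split by class as well. Rab37 had 98.9, 82.0 and 69.7 CPM in NK cells, 33.2, 29.9 and 30.6 CPM in T cells and 0.579, 0.528 and 0.664 CPM in melanoma cells. The log2 fold change against melanoma cells was 7.22 ± 0.24 in NK cells (adjusted p = 1.4e-23, edgeR) and 5.92 ± 0.23 in T cells (adjusted p = 1.8e-21, edgeR), and the NK and T sums did not overlap. Rab3a, a Rab of synaptic vesicles, was lower in all 4 other classes than in melanoma cells (21.3, 20.4 and 19.6 CPM), and stromal cells had 5.37, 6.84 and 6.01 CPM. Rab3d, a Rab of secretory granules, was highest in stromal cells at 26.9, 27.0 and 41.3 CPM, against 5.64, 5.37 and 5.36 CPM in melanoma cells (log2 fold change 2.90 ± 0.16, adjusted p = 3.5e-17, edgeR).

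Rab27a and Rab34 were lower and Rab8a was higher in lymphocytes than in melanoma cells, and the DNA before their starts is shown for these opposite patterns. The RefSeq table of the GRCm38.p6 build, the assembly called mm10 in the files, matched 46 of the 57 members with 58 starts. Each stretch holds the 250 bases before a start, 5′ to 3′ on the plus strand. The search was for CACGTG, which reads the same on both strands, and for CATGTG or its reverse CACATG, the core letters of boxes bound by factors of the MITF type, and capitals mark a match. The stretch of Rab27a at chr9:73063898-73064147 lies within the gene and outside its exons, and the other 3 lie outside the genes.
Rab27a, chr9:73044560-73044809, plus strand: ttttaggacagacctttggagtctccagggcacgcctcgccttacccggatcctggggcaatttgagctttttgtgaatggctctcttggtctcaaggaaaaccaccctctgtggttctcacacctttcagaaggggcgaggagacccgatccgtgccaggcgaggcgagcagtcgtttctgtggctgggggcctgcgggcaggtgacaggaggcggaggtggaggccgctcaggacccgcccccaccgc
Rab27a, chr9:73063898-73064147, plus strand: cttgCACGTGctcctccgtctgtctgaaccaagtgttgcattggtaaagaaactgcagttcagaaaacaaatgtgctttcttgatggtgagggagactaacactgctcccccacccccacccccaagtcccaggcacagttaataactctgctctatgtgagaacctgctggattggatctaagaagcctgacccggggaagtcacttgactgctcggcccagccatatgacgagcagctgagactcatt
Rab34, chr11:78188177-78188426, plus strand: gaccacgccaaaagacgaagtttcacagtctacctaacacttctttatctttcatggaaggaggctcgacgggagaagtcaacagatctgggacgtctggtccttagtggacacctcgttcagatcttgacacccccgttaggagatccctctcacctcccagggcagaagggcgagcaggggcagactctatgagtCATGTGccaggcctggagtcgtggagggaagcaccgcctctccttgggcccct
Rab8a, chr8:72160950-72161199, plus strand: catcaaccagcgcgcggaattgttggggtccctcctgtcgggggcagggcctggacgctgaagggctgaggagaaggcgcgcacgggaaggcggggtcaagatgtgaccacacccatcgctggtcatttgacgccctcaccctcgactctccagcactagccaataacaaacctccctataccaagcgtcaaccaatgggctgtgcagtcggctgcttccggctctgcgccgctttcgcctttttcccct
The inner start of Rab27a held CACGTG 246 bases ahead of it and the start of Rab34 shown held CATGTG 53 bases ahead of it. A second Rab34 start, with its 250 bases at chr11:78188498-78188747, held neither motif, and the first Rab27a stretch and the stretch of Rab8a also held neither. Over all 32851 promoters of the table, 6.02% held CACGTG and 12.3% held CATGTG on either strand within the same length. Either motif stood in 11 of the 58 stretches of members, or 19.0%, against 17.6% of all promoters. Among members with a promoter in the table, 5 of 16 that were lower in T cells and 2 of 12 that were higher had a match, the latter being Rab5a and Rab21 with CACGTG. So did 1 of 10 that did not pass and 2 of 8 that were not tested. These counts are of members, some with several starts, and cannot be set beside the 17.6% of promoters. The stretches shown are examples and do not stand for all members. Rab12, Rab14, Rab17 and Rab3a, among others, were lower in T cells without a match. No link between a match and the direction was tested. A match is a run of letters in this window and was not tested as a binding site.

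Rabs of the endoplasmic reticulum and Golgi were highest in stromal cells, with a summed level of 887, 837 and 837 CPM against 518, 536 and 520.3 CPM in melanoma cells and at most 658 CPM in any immune sum. Of the 10 members tested, 8 rose in stromal against melanoma cells, beside 38.8% of all genes, and 1 fell, beside 31.4%, with a median log2 fold change of 0.89 against 0.09 over all genes. Rab1a, which acts between the endoplasmic reticulum and the Golgi, had 161, 194 and 199 CPM in stromal cells and 109, 115 and 111 CPM in melanoma cells. Rab2a, of the same step, had 285, 298 and 279 CPM against 187, 184 and 179.6 CPM. Both were without overlap between the 2 classes.

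A pair of Golgi Rabs stood high in immune cells. Rab43 had 146, 172 and 108 CPM in myeloid cells, 19.9, 33.2 and 37.5 CPM in T cells and 15.0, 16.3 and 16.0 CPM in melanoma cells, with a log2 fold change of 3.37 ± 0.18 in myeloid against melanoma cells (adjusted p = 1.3e-17, edgeR). Rab19 had 26.6, 29.1 and 32.5 CPM in T cells, 12.4, 26.7 and 34.5 CPM in NK cells and 0.0854, 0.277 and 0.217 CPM in melanoma cells, with a log2 fold change of 7.31 ± 0.29 in T against melanoma cells (adjusted p = 2.2e-21, edgeR). Rab6b was counted once in the 3 myeloid sums, against 12.8, 12.8 and 12.6 CPM in melanoma cells, a ratio of 0.0476 (95% exact interval 0.00121 to 0.265) for counting error only.

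Among early endosome Rabs, Rab5a, Rab5b and Rab5c share the task of forming early endosomes, and they differed in direction between T and melanoma cells. Rab5a had 51.6, 50.3 and 45.5 CPM in melanoma cells and 126, 103 and 80.4 CPM in T cells, a log2 fold change of 1.16 ± 0.13 (adjusted p = 6.3e-10, edgeR). Rab5b had 31.4, 38.6 and 33.6 CPM and 19.9, 17.0 and 14.3 CPM in the same classes, a log2 fold change of -0.95 ± 0.18 (adjusted p = 2.7e-05, edgeR). Rab5c had 105, 110.1 and 106 CPM and 119.6, 107 and 97.3 CPM, a log2 fold change of 0.16 ± 0.19 (adjusted p = 0.47, edgeR). In T cells Rab5a was therefore higher, Rab5b lower, and Rab5c was not shown to differ. In myeloid cells Rab5c rose by 0.95 ± 0.21 on the log2 scale against melanoma cells (adjusted p = 1.9e-04, edgeR).

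Rab20, which acts on phagosomes and early endosomes, and Rab31, which acts between the Golgi and endosomes, separated myeloid from T cells. Rab20 had 36.4, 33.1 and 53.1 CPM in myeloid cells against 13.3, 4.85 and 8.30 CPM in T cells (log2 fold change 2.78 ± 0.32, adjusted p = 1.2e-08, edgeR). Rab31 had 36.4, 19.9 and 29.97 CPM in myeloid cells, 0, 1.62 and 1.33 CPM in T cells and 21.4, 21.6 and 20.2 CPM in melanoma cells. T cells held 0, 2 and 4 UMIs, and the log2 fold change of myeloid against T cells was 4.45 ± 0.49 (adjusted p = 3.8e-09, edgeR).

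Among recycling Rabs, Rab4a and Rab4b both serve fast recycling to the surface. Rab4a had 26.4, 25.7 and 25.2 CPM in melanoma cells and 6.64, 8.09 and 7.64 CPM in T cells, while Rab4b had 42.0, 41.1 and 38.9 CPM and 86.4, 72.8 and 81.7 CPM. The log2 fold change of T against melanoma cells was -1.48 ± 0.23 for Rab4a (adjusted p = 1.2e-06, edgeR) and 1.21 ± 0.13 for Rab4b (adjusted p = 3.9e-10, edgeR), and Rab4a was the lower and Rab4b the higher also in NK, myeloid and stromal cells against melanoma cells. Rab11a, the main Rab of the recycling endosome, had 99.4, 93.9 and 93.9 CPM in melanoma cells, 93.0, 75.2 and 60.1 CPM in T cells and 182, 137 and 149.8 CPM in myeloid cells. It rose in myeloid cells against both others, by 1.01 ± 0.14 against melanoma cells (adjusted p = 1.3e-07, edgeR) and 1.26 ± 0.16 against T cells (adjusted p = 9.8e-08, edgeR) on the log2 scale. Its paralog Rab11b had 72.5, 73.0 and 70.6 CPM in melanoma cells and 74.2, 97.3 and 109 CPM in NK cells, with a log2 fold change of 0.71 ± 0.15 (adjusted p = 1.2e-04, edgeR).

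Among late endosome Rabs, Rab7, which brings cargo to lysosomes, had 223, 227 and 219 CPM in melanoma cells, 66.4, 112 and 102 CPM in T cells and 146, 229 and 215 CPM in myeloid cells. Rab7b, which returns cargo from late endosomes to the Golgi, had 109, 124 and 109.6 CPM in myeloid cells and 21.5, 40.3 and 41.0 CPM in stromal cells. It had 0.0712, 0.138 and 0.0931 CPM in melanoma cells, 0, 0 and 2.66 CPM in T cells and no UMI in NK cells. Within the myeloid class it was uneven, and it is among the 10 leading genes of the conventional dendritic cell cluster. That cluster, 82 of the 488 cells, held 115 UMIs of Rab7b, at 484, 218 and 227 CPM, the first from 2 UMIs in 1 cell. The larger phagocyte cluster, led by Cxcl2, Chil3 and Cd14, held 69, at 45.4, 41.7 and 73.7 CPM, and the smaller one 3. As a description, Rab43 also leaned to the dendritic cells, with 133 UMIs there against 70 in that phagocyte cluster, and Rab20 to the phagocytes, with 1 UMI against 74. The 3 libraries differ in how many dendritic cells they hold (1, 39 and 42). Against melanoma cells Rab7b had a log2 fold change of 10.26 ± 0.26 in myeloid cells (adjusted p = 1.6e-25, edgeR) and 8.61 ± 0.22 in stromal cells (adjusted p = 8.6e-26, edgeR). All 8 UMIs of Rab7b in T cells came from the library labelled shMib2 replicate 2, and its call as higher in T than in melanoma cells (log2 fold change 4.16 ± 0.81, adjusted p = 3.4e-05, edgeR) was lost without it, with adjusted p = 0.70. The 12 mononuclear phagocyte markers summed to 405, 722 and 695 CPM in T cells and 4042, 5498 and 8797 CPM in myeloid cells, and the part of phagocyte RNA in that call was not tested.

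Of the 11 members outside the role groups, Rab17, Rab24, Rab28, Rab34, Rab39b and Rab40c were highest in melanoma cells by mean CPM. Rab12, Rab23, Rab33a and Rab42 were highest in stromal cells and Rab29 in myeloid cells, and Rab12 was high in both melanoma and stromal cells. Rab17, a Rab of recycling in polarized cells that also serves melanosome release, had 41.3, 40.0 and 39.4 CPM in melanoma cells and 0, 0.809 and 0.332 CPM in T cells, a pooled ratio of 0.0113 (95% exact interval 0.00137 to 0.0408) for counting error. It lies on chromosome 1 from 90958133 to 90969661, 6990 bases from the end of Mlph, which encodes the Rab27a effector melanophilin and was also higher in melanoma cells. Rab34, which acts at the Golgi and in forming cilia, had 102, 96.0 and 96.1 CPM in melanoma cells, 43.0, 64.2 and 74.5 CPM in stromal cells and 0, 4.05 and 6.64 CPM in T cells (log2 fold change of T against melanoma cells -3.89 ± 0.23, adjusted p = 2.5e-16, edgeR). Melanoma RNA in T cells would by itself give 5.28, 4.45 and 2.73 CPM of Rab34. Rab12 had 61.8, 65.1 and 62.3 CPM in melanoma cells, 59.1, 64.6 and 72.1 CPM in stromal cells and 12.4, 1.91 and 6.74 CPM in NK cells. Against melanoma cells it was lower in NK cells (log2 fold change -3.27 ± 0.31, adjusted p = 6.3e-11, edgeR) and higher in stromal cells (log2 fold change 0.33 ± 0.11, adjusted p = 0.012, edgeR), where the sums of the 2 classes overlapped. Rab23, known from signaling at cilia, had 43.0, 38.8 and 40.0 CPM in stromal cells and 12.1, 13.0 and 12.4 CPM in melanoma cells.

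Across the family, 45 of the 57 members passed the filter on low counts for the fit over the 15 sums of 5 classes and 3 libraries. The filter asks for a level in CPM in several sums and not only for total UMIs. Rab39b with 3438 UMIs and Rab36 with 3059 UMIs were thus left out, while Rab27b with 142 UMIs was tested. The shares below hold for members and genes that passed this filter. The other 12 were Rab15, Rab25, Rab26, Rab30, Rab33a, Rab36, Rab39b, Rab3b, Rab40b, Rab42, Rab44 and Rab9b. In T against melanoma cells 15 members were higher, against 34.4% of 10594 genes tested, and 18 were lower, against 36.5%. In NK cells 16 were higher, against 29.7% of genes, and 18 lower, against 33.8%. As shares of the 45 these are 33.3% and 40.0% in T cells and 35.6% and 40.0% in NK cells, near the shares of all genes.

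In myeloid and stromal cells more members were higher than lower. In myeloid cells 23 members, or 51.1%, were higher, against 30% of genes, and 11, or 24.4%, were lower, against 30.1%. In stromal cells 28, or 62.2%, were higher, against 38.8% of genes, and 11, or 24.4%, were lower, against 31.4%. The median log2 fold change of the members tested was 0.02 in T, -0.16 in NK, 0.50 in myeloid and 0.57 in stromal cells, beside -0.08, -0.17, -0.11 and 0.09 over all genes. Without the library labelled shMib2 replicate 2, 20 members passed in T, 18 in NK, 20 in myeloid and 21 in stromal cells, in either direction. Without the library labelled shMib2 replicate 1, 25 passed in stromal cells. In the stromal sums, fibroblast markers were at 19672, 38799 and 39289 CPM and mural markers at 3708, 1257 and 972 CPM, so the mix of the 24 cells from the library labelled shCtrl differed from that of the other 2.

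**Figure D3:**
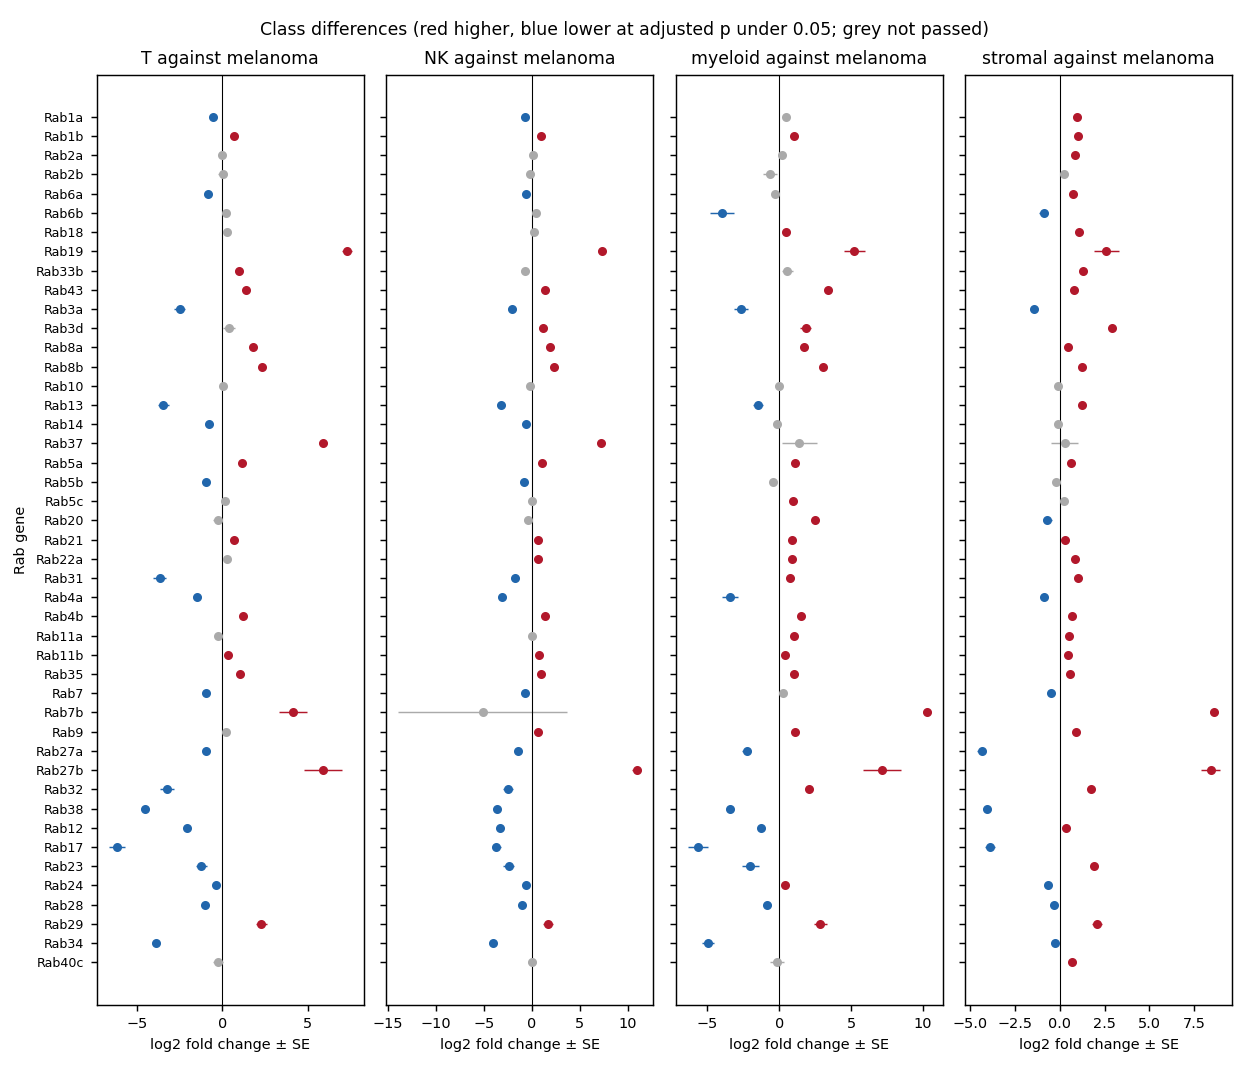
Log2 fold change with its standard error for the 45 Rab genes tested, in T, NK, myeloid and stromal cells against melanoma cells, with rows in the order of the heat map and a separate x axis in each panel. Rab38, Rab17, Rab27a, Rab3a and Rab4a lie below 0 in all 4 panels, and Rab8a, Rab8b, Rab4b and Rab5a lie above 0 in all 4.

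Of the 45 members, 12 or 26.7% were higher than in melanoma cells in all 4 other classes, against 12.5% of genes. They were Rab8a, Rab8b, Rab4b, Rab5a, Rab11b, Rab19, Rab27b, Rab43, Rab1b of the endoplasmic reticulum and Golgi, Rab21 of early endosomes, Rab35 of recycling endosomes and Rab29 of the Golgi and lysosomes. Of these Rab29 had 1.98, 2.28 and 2.41 CPM in melanoma cells and 0, 15.4 and 12.8 CPM in myeloid cells (log2 fold change 2.86 ± 0.45, adjusted p = 1.6e-06, edgeR), and Rab35 had 27.0, 28.5 and 27.5 CPM and 19.9, 47.7 and 51.1 CPM in melanoma and T cells (log2 fold change 1.03 ± 0.14, adjusted p = 1.2e-07, edgeR). Some of the 12 rest on weak calls, since the stromal call of Rab8a was lost when either library labelled shMib2 was left out. Nor was each of the 12 higher in every library. In the library labelled shCtrl, Rab11b, Rab35 and Rab4b had 48.4, 21.5 and 37.6 CPM in stromal cells. Melanoma cells of that library had 72.5, 27.0 and 42.0 CPM. Rab29 had 0 UMIs in its T, NK and myeloid cells, and the stromal and melanoma sums of Rab21 overlapped. Rab19 had 8 UMIs over the stromal sums, and Rab27b had 1, 0 and 4 UMIs in T cells and 0, 1 and 3 in myeloid cells. Rab27b and Rab19, at most 0.0189 and 0.277 CPM in melanoma cells, entered the fit only through classes where they were higher. Their calls there add no support to the share of 26.7%, and genes of this kind also enter the 12.5%. Lower in all 4 classes were 7 members or 15.6%, against 14.5% of genes, namely Rab17, Rab27a, Rab28, Rab34, Rab38, Rab3a and Rab4a. Rab10 and Rab2b, 4.44% of the members, passed in none of the 4, as did 6.28% of genes.

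Between myeloid and T cells, 17 members were higher in myeloid cells, against 19.7% of genes, and 5 were lower, against 17%. The 5 were Rab37, Rab6b, Rab19, Rab4a and Rab27a. Rab37 had 33.2, 29.9 and 30.6 CPM in T cells and 0, 0 and 1.71 CPM in myeloid cells. The calls of Rab4a, Rab27a and Rab38 did not hold without shMib2 replicate 1 nor without replicate 2, and that of Rab19 not without replicate 2. Among the 17, Rab7b and Rab32 had the largest fold changes, and the pooled myeloid to T ratio was 62.4 (95% exact interval 31.0 to 147) for Rab7b and 36.7 (95% exact interval 18.0 to 87.1) for Rab32, where intervals cover counting error. Without the library labelled shMib2 replicate 1 the test called 13 members in all, and without replicate 2 it called 8.

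Between the labels, Rab RNA of melanoma cells was nearly flat. Of 55 members tested in melanoma cells, none passed at an adjusted p under 0.05 in edgeR or in DESeq2, and 11 had an unadjusted p under 0.05 in edgeR. How many of all genes had such an unadjusted p was not counted, so the 11 have no share to be set against. Over all 15766 genes, 0.641% were higher and 0% lower in the libraries labelled shMib2 at the adjusted threshold. With 1 library labelled shCtrl the fit had 1 residual degree of freedom, and it assumes that this library varies like the others. For the 43 members with at least 1000 melanoma UMIs, log2 fold changes lay between -0.23 and 0.20, with a median of -0.02 beside 0.01 over all genes. Rab8a differed by -0.05 ± 0.04 (adjusted p = 0.53, edgeR), Rab38 by -0.03 ± 0.05 (adjusted p = 0.81, edgeR) and Rab27a by 0.13 ± 0.04 (adjusted p = 0.23, edgeR) on the log2 scale. Their 3 libraries lay at 47.5, 48.0 and 46.4 CPM, at 344, 358 and 338 CPM and at 73.6, 86.0 and 80.7 CPM. Both libraries labelled shMib2 lay above shCtrl for Rab27a, and on either side of it for Rab8a and Rab38. The lowest p among members was that of Rab13 (36.6, 33.5 and 31.5 CPM), with a log2 fold change of -0.22 ± 0.04 and an adjusted p = 0.16 in edgeR.

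**Figure D4:**
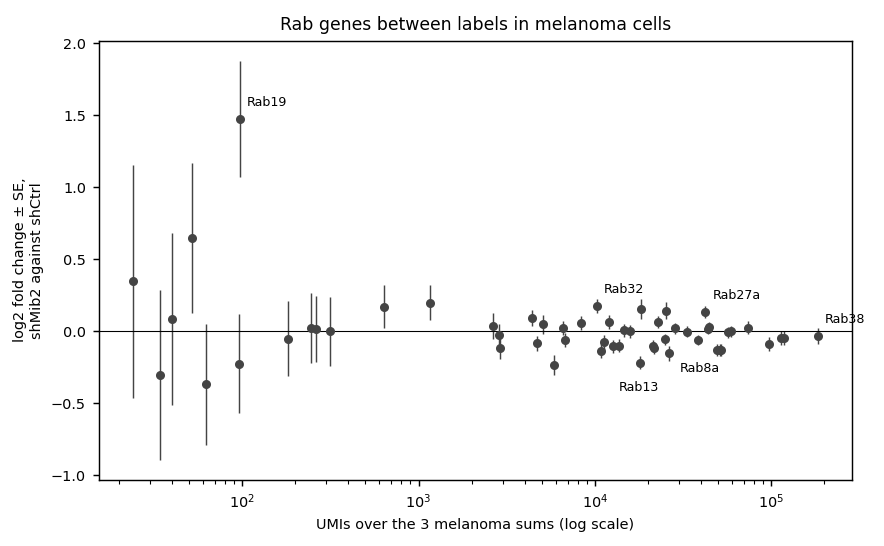
Log2 fold change between labels in melanoma cells, shMib2 against shCtrl, for the 55 Rab genes tested (y axis, with standard errors) against their UMIs over the 3 melanoma sums (x axis, log scale). Members with 1000 or more UMIs lie between -0.23 and 0.20, and members with fewer UMIs spread more widely, where Rab19 with 97 UMIs stands at 1.48.

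The same comparison in lymphocytes was limited by the 81 T cells and 46 NK cells of the library labelled shCtrl. In T cells none of 35 members tested passed in edgeR or DESeq2, and 1 had an unadjusted p under 0.05, while 0.467% of 8574 genes were higher and 0.676% lower. In NK cells none of 28 members passed in edgeR or DESeq2, and 3 had an unadjusted p under 0.05, while 0.062% of 6447 genes were higher and 0.062% lower. Rab8a, at 126, 149.7 and 142 CPM in T cells, differed by 0.12 ± 0.28 on the log2 scale (adjusted p = 0.95, edgeR). Rab10, at 73.1, 145 and 135 CPM in T cells and 37.1, 124 and 115 CPM in NK cells, had the lowest p in both, with adjusted p = 0.49 and 0.68 in edgeR, on 11 and 3 UMIs in the library labelled shCtrl. Whether the label difference in melanoma cells departed from that in T cells was tested for 54 members. None passed in edgeR and 1, Rab10, had an unadjusted p under 0.05, while 0.693% of 15580 genes had a label difference that was higher in melanoma than in T cells and 0.263% one that was lower. The median of these differences was -0.48 over the members and -0.39 over all genes on the log2 scale. For these 3 tests too, the shares of all genes are those at the adjusted threshold, and shares at an unadjusted p were not counted. In simulated counts the label test recovered 77.0% of 2-fold changes in melanoma sums and 8.60% in T cell sums, with 13 and 2 false calls. These counts had a dispersion of 0.01 for every gene, which was not taken from these libraries, so the shares may differ in the real data. In that setting a 2-fold change in T cells was mostly not detectable, and NK sums were not simulated.

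The Rab genes also varied between clusters of melanoma cells. Over 11 clusters with at least 25 cells in each library, 44 members with at least 500 UMIs were followed, as a description, since the clusters come from the same cells. The mean log2 difference from the library's melanoma level ranged over 0.68 for Rab38, 0.79 for Rab27a and 0.67 for Rab8a. The widest ranges, picked after the values were seen, were those of Rab36 (2.18), Rab3a (2.08) and Rab32 (1.82), and the narrowest that of Rab9 (0.25). Rab32 was at 30.3, 33.0 and 33.2 CPM in the cluster led by Car6, Cck and Uhrf1 and at 9.21, 10.4 and 7.85 CPM in the cluster led by Espn, Ero1l and Adm, and the 3 libraries kept this order. Rab3a was at 36.6, 37.3 and 31.3 CPM in the cluster led by Kcnj13, Coq8a and Thrsp and at 9.53, 7.24 and 8.12 CPM in the cluster led by Espn. Rab8a was at 59.8, 60.0 and 58.8 CPM in a cluster led by Fbxo5, Ccne1 and Hist1h1e and at 37.8, 36.8 and 37.8 CPM in a cluster led by Cck. Rab38 was lowest in the cluster led by Espn, at 257, 247 and 237 CPM, against 401, 399 and 389 CPM in the cluster led by Cck.

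Shares of single cells with a UMI depend on depth. A UMI of Rab38 was found in 98.8, 98.8 and 99.3% of melanoma cells and one of Rab8a in 69.8, 67.8 and 83.0%, whose median depth was 24911 to 43782.5 UMIs. In T cells, with a median of 1480 to 2648 UMIs, the shares were 1.23, 3.74 and 3.35% and 21.0, 25.1 and 36.4%. With each cell thinned to 1000 UMIs, Rab8a was found in 4.61, 4.63 and 4.53% of melanoma cells and 11.8, 14.8 and 14.6% of T cells, leaving out 14, 111 and 28 shallower T cells. The unthinned order of Rab8a between the classes was thus the reverse of its CPM order. For Rab38 the thinned shares were 28.5, 29.2 and 27.8% and 1.11, 1.86 and 1.21%, and for Rab27a 7.20, 8.36 and 7.83% and 2.12, 2.22 and 3.51%.

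Regulators and effectors of Rabs were followed in 6 lists of 114 genes, of which 98 could be tested between classes. In T against melanoma cells 34 were higher and 32 lower, beside 34.4% and 36.5% of all genes, and in NK cells 29 and 28, beside 29.7% and 33.8%. In myeloid cells 43 were higher and 19 lower, beside 30% and 30.1% of all genes, and in stromal cells 41 and 26, beside 38.8% and 31.4%. The T, NK and stromal shares were thus close to those of all genes, and the medians were 0.14, -0.02, 0.43 and 0.20 on the log2 scale beside the medians over all genes given above. Between labels none of 110 tested in melanoma cells passed in edgeR, and DESeq2 called 1, the Rab7 effector Plekhm1, named here after its value was seen. An unadjusted p under 0.05 in edgeR was found for 20, and the share of all genes with such a p was not counted. The lists are of membrane extraction, exchange factors, GTPase-activating proteins, the exocyst and 2 kinds of effector.

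Among effectors of melanosomes and secretory granules, Mlph had 112, 123 and 126 CPM in melanoma cells and 6.64, 7.28 and 3.99 CPM in T cells (log2 fold change -4.37 ± 0.25, adjusted p = 6.6e-17, edgeR). Myo5a, its motor, had 133, 153 and 146 CPM against 13.3, 16.2 and 15.9 CPM (log2 fold change -2.97 ± 0.17, adjusted p = 5.0e-17, edgeR). Sytl3, a synaptotagmin-like protein that binds Rab27, had 0.0997, 0.163 and 0.224 CPM in melanoma cells, 53.1, 34.0 and 77.1 CPM in T cells and 247, 120.1 and 244 CPM in NK cells (log2 fold change of NK against melanoma cells 10.31 ± 0.21, adjusted p = 1.9e-29, edgeR). In T and NK cells Sytl3 thus stood high where Mlph and Myo5a were low. In myeloid cells, where Mlph was low as well, Sytl3 was lower than in T cells (log2 fold change -3.25 ± 0.38, adjusted p = 1.2e-08, edgeR). Sytl2, another protein of that family, had 57.5, 60.5 and 60.0 CPM in melanoma cells, 24.7, 91.5 and 66.7 CPM in NK cells and 0, 2.21 and 3.42 CPM in myeloid cells (log2 fold change of myeloid against melanoma cells -3.94 ± 0.47, adjusted p = 1.0e-08, edgeR). Of the 17 effectors of this list tested, 3 were higher and 7 lower in T cells, beside 34.4% and 36.5% of all genes, and 3 and 9 in stromal cells, beside 38.8% and 31.4%.

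Among GTPase-activating proteins, Tbc1d10c had 79.7, 125 and 117 CPM in T cells and 1.02, 1.12 and 0.900 CPM in melanoma cells (log2 fold change 7.08 ± 0.16, adjusted p = 2.2e-28, edgeR). Rabgap1l had 79.7, 101 and 93.7 CPM against 3.91, 4.57 and 4.40 CPM (log2 fold change 4.65 ± 0.13, adjusted p = 2.0e-25, edgeR). Evi5, which acts on Rab11, had 0, 6.47 and 4.98 CPM in T cells and 55.1, 56.2 and 54.0 CPM in melanoma cells (log2 fold change -3.16 ± 0.24, adjusted p = 2.2e-13, edgeR). Tbc1d4, which acts on Rab10 and Rab8a, had 0, 172 and 179 CPM in myeloid cells against 13.3, 33.2 and 19.3 CPM in T cells (log2 fold change 3.01 ± 0.22, adjusted p = 3.7e-13, edgeR), with 266 of its myeloid UMIs in the dendritic cell cluster and 15 and 6 in the phagocyte clusters. Of the 23 tested, 12 were higher and 4 lower in myeloid against melanoma cells, beside 30% and 30.1% of all genes, and 12 and 3 in stromal cells, beside 38.8% and 31.4%.

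Of the exchange factors, Dennd4a, which acts on Rab10, had 457, 528 and 528 CPM in NK cells, 299, 255 and 309.5 CPM in T cells and 10.2, 12.3 and 10.98 CPM in melanoma cells (log2 fold change of NK against melanoma cells 5.72 ± 0.18, adjusted p = 6.2e-24, edgeR). Rab3il1, which acts on Rab8, had 5.37, 37.2 and 35.02 CPM in stromal cells, 0, 24.3 and 47.9 CPM in myeloid cells and 3.37, 3.36 and 3.20 CPM in melanoma cells, with a log2 fold change of 3.61 ± 0.19 in stromal against melanoma cells (adjusted p = 2.8e-18, edgeR). It was nearly absent from T cells, with 0, 0 and 1 UMIs. Of 23 exchange factors tested, 11 were higher and 7 lower in T against melanoma cells, beside 34.4% and 36.5% of all genes.

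Of the endosome effectors, Rilpl2, which binds Rab8 and Rab10 marked by phosphate, had 109, 126 and 155 CPM in myeloid cells, 99.6, 115 and 119.6 CPM in T cells and 15.0, 15.0 and 15.0 CPM in melanoma cells (log2 fold change of myeloid against melanoma cells 3.61 ± 0.16, adjusted p = 1.4e-19, edgeR). Rab11fip1, an effector of Rab11, had 36.4, 77.2 and 57.4 CPM in myeloid cells and 2.45, 2.61 and 2.50 CPM in melanoma cells (log2 fold change 5.01 ± 0.26, adjusted p = 8.9e-18, edgeR). Ehd1 of recycling endosomes and Rab11fip5 were higher in stromal cells, by 2.41 ± 0.12 (adjusted p = 4.8e-19, edgeR) and 4.27 ± 0.24 (adjusted p = 1.1e-16, edgeR) on the log2 scale. Appl2, an effector of Rab5, was lower in T cells, at 6.64, 5.66 and 6.64 CPM against 57.8, 63.2 and 60.8 CPM in melanoma cells.

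**Figure D5:**
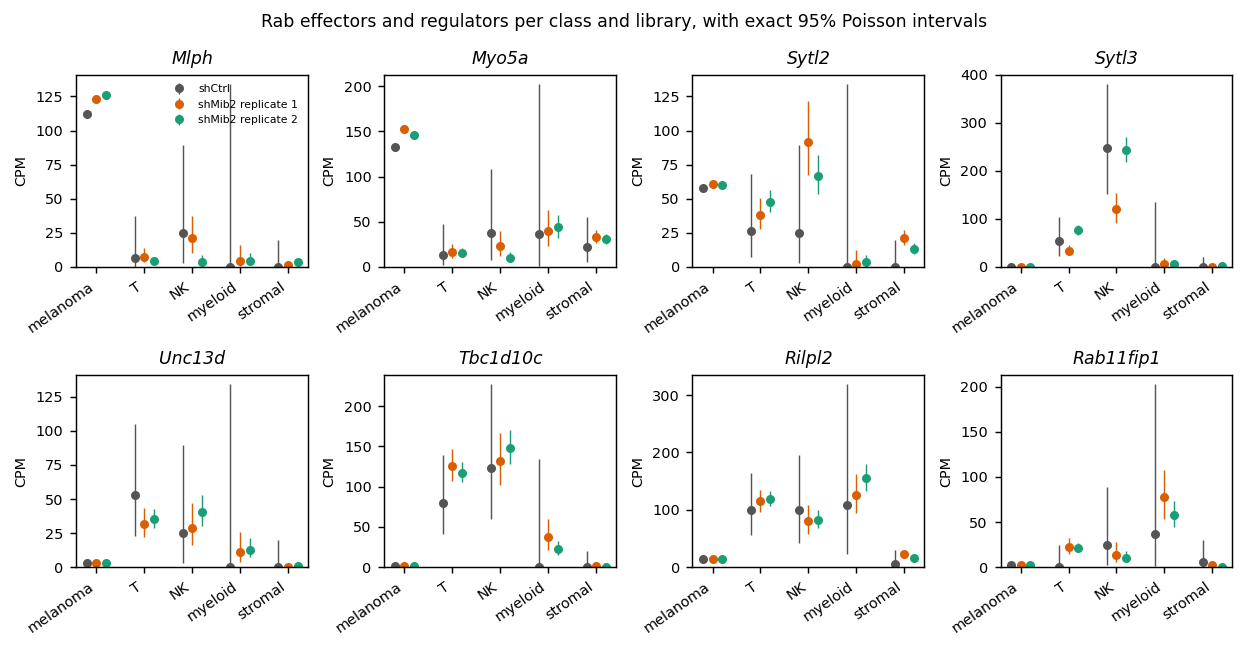
Level in CPM of 8 effectors and regulators of Rabs in each cell class (x axis) and library (color), with exact 95% Poisson intervals that cover counting error only. Mlph and Myo5a are highest in melanoma cells, at 112 to 126 and 133 to 153 CPM, while Sytl3, Unc13d and Tbc1d10c are high in T and NK cells.

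The exocyst is the complex that tethers vesicles at the plasma membrane. Of its 11 genes tested, including the Ral GTPases and their exchange factor, 2 were higher and 3 lower in T against melanoma cells, beside 34.4% and 36.5% of all genes, and 4 and 1 in myeloid cells, beside 30% and 30.1%. Exoc2 had 33.2, 29.9 and 28.9 CPM in T cells and 15.6, 17.5 and 16.8 CPM in melanoma cells (log2 fold change 1.04 ± 0.18, adjusted p = 5.3e-06, edgeR). Exoc4 had 26.6, 39.6 and 36.5 CPM against 67.8, 72.2 and 68.9 CPM (log2 fold change -0.69 ± 0.15, adjusted p = 1.2e-04, edgeR), the other direction. Ralgds, at 0, 11.3 and 7.64 CPM in T cells and 14.7, 14.67 and 14.4 CPM in melanoma cells, had an adjusted p = 0.051 in edgeR. Ralb, a Ral GTPase that binds the exocyst, was higher in myeloid than in T cells, at 109, 66.2 and 68.5 CPM against 13.3, 9.71 and 8.63 CPM (log2 fold change 3.04 ± 0.26, adjusted p = 1.3e-11, edgeR).

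As a description, genes were ordered by how closely their log2(CPM + 1) followed a Rab over the 15 sums, among 6006 genes with a mean of at least 20 CPM. The sums share 3 libraries and differ in depth. For Rab38 the 5 closest were Tyr (Pearson r 0.98), the tyrosinase of melanin synthesis, Gpnmb (0.97), Ndufb9 (0.97), Ndufv3 (0.96) and Met (0.96). For Rab8a they were Il2rg (0.99), Arhgap45 (0.99), Runx3 (0.98), Ptprc (0.98) and Fmnl1 (0.98), of which Il2rg and Ptprc encode surface proteins of blood cells. For Rab27a, which both melanoma cells and lymphocytes express, they were Atrx (0.94), Pcna (0.93), Hpf1 (0.92), Ogdh (0.91) and Ddt (0.90).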

How the data were processed

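Droplet libraries were made from dissociated tumors with a 10x 5′ kit, 1 labelled shCtrl and 2 labelled shMib2, each a pool of 3 mice. The authors aligned the reads to mm10 and counted UMIs per gene and barcode with Cell Ranger 4.0.0, and the deposited matrices hold raw counts without normalization. Reads that Rab paralogs or overlapping genes share could be assigned to either, which was not tested.

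Barcodes with under 200 genes or over 20% mitochondrial UMIs and predicted doublets were removed (741 to 1105 and 424 to 622 barcodes per library). The rest were grouped into 27 clusters from 2000 variable genes, 30 principal components and 20 neighbours (Leiden, resolution 1). Clusters were named from marker lists, with the score thresholds set after the files were seen. Melanoma cells were then taken by the UMI and Dct plus Pmel rule. UMIs were summed per class and library and tested with edgeR 4.0.16 (quasi-likelihood, TMM, filterByExpr, Benjamini-Hochberg over all genes tested, threshold 0.05) in R 4.3.3. Classes were compared in 1 fit over 15 sums with the library as a block, since each library holds every class. Labels were compared in fits over 3 sums with 1 residual degree of freedom. Myeloid and stromal cells were not tested between labels, the former for having under 20 cells in a library. Since nothing else is replicated than these pools, p-values measure the spread between these libraries. The SE given with an edgeR fold change was worked back from the test, as the absolute log2 fold change divided by the square root of its quasi-likelihood F. DESeq2 1.42.0 was an alternative. Poisson and ratio intervals are exact at 95% and cover counting error only, and a count of 0 allows up to 3 counts. The steps were tested on simulated data: for T against melanoma cells, with 9088 genes run, 81.8% of 2-fold and 100% of 4-fold changes were recovered, with 7 false calls. The simulated counts had a dispersion of 0.01 for every gene, which was not taken from these libraries. All classes were drawn from 1 pooled profile, with 200 genes picked for known changes. Far more genes differ between the real classes, so these shares and false calls may not hold there.

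Values per library are given for Rab8a, Rab27a, Rab38, Rabs named in the study, their close paralogs and up to 4 members per direction and comparison with the largest fold changes among those that passed with at least 20 UMIs. Of the regulators, up to 3 per direction and comparison with the lowest p are named, with Exoc2, Exoc4 and Ralgds. Rab1a, Rab2a, Rab4b, Rab7, Rab23, Rab29, Rab35, Rab44, Unc13d and Plekhm1 fall outside these rules and were added with their values known. The members and lists were chosen with earlier results of these data known. Gene positions come from GENCODE M21 and promoters from RefSeq. Python 3.11.15, numpy 2.4.6, scipy 1.17.1 and leidenalg 0.10.2 were used.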

Additional observations from a re-analysis of the deposited data

How the results depend on the processing

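The alternatives were DESeq2, its size factors in edgeR, other filters on low counts, all barcodes kept, no replicate block, the melanoma profile subtracted from other classes, thinned sums, other rules for melanoma cells and leaving out each library. Leaving out 1 library moved the number of members called from 33 to 20–34 in T, from 34 to 18–35 in NK, from 34 to 20–37 in myeloid and from 39 to 21–40 in stromal against melanoma cells, and from 22 to 8–26 in myeloid against T cells. Members higher went from 15 to 9–15, 16 to 10–16, 23 to 13–24, 28 to 17–28 and 17 to 7–20 in the same order, and members lower from 18 to 11–19, 18 to 8–19, 11 to 7–13, 11 to 4–12 and 5 to 1–6. The lowest of these came without shMib2 replicate 2, and such fits hold fewer samples. DESeq2 called 7 members lower in stromal cells (main 11). Every other count of members called stayed within 1.5 times, and between labels it stayed at 0. Over all genes, 101 genes called in melanoma cells between labels became 0–268, 98 in T cells 5–118 and 8 in NK cells 1–22, and the class comparisons ranged over 3883–10154 genes in T, 3445–8378 in NK, 3088–8002 in myeloid, 3726–10833 in stromal and 1337–4610 in myeloid against T cells.

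Of the values of single members, 555 counted as unchanged, 13 lost the call and 1 reversed. Unchanged meant the same direction and side of the threshold, or no call in either fit whatever the direction. Label differences with a library labelled shMib2 left out had no p, and there unchanged meant within 1 SE of the main value. The log2 fold change of Rab7b in T against melanoma cells, 4.16 with all libraries, was -5.32 without shMib2 replicate 2 (adjusted p = 0.70, edgeR), where T cells hold no UMI of it, and 4.81 without shMib2 replicate 1. Rab8a in stromal cells also lost its call with no filter on low counts (log2 fold change 0.25, adjusted p = 0.093, edgeR). In myeloid against T cells, Rab38 and Rab4a lost theirs in DESeq2 (adjusted p = 0.055 and 0.087), and Rab4a with no filter. With sums at 0 UMIs set to their limit and other sums left as counted, chosen after seeing the data, 10 in place of 23 members had every library of 1 class above all others. Dropping the block changed no call of a single member. The 12 myeloid and 24 stromal cells of the library labelled shCtrl limit the depth of those sums, and a 2-fold label difference in T cells was mostly not detectable in simulated counts.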
